A study of Mus musculus with 6 samples.

Results

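The enzymes described here are 8 phosphotransfer kinases of HL-1 cells, 4 adenylate kinases (Ak1, Ak3, Ak4 and Ak5) and 4 creatine kinases (Ckb, Ckm, Ckmt1 and Ckmt2). Every probe set that the platform annotation gives to one of these symbols was taken, which made 18 of the 45037 probe sets on the array, 12 for the adenylate kinases and 6 for the creatine kinases. None of the 18 carried a second gene symbol. These genes were chosen by values measured on the same arrays, since Ak4 was picked for the largest rise in hypoxia of all genes tested and the other isoforms were added as its family and its creatine counterpart. The contrast of hypoxia with normoxia is therefore given as a description for all 8 enzymes, with intervals and without p-values. Where a probe set is said to pass or not to pass, this refers to the test across the whole table and is part of that description.

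HL-1 is a mouse line of cardiomyocytes derived from an atrial tumour of a mouse that carried a viral oncogene under the promoter of atrial natriuretic factor, so its cells divide, unlike cardiomyocytes of the adult heart. Confluent HL-1 cells were held for 8 hours at 1% oxygen (hypoxia, 3 arrays) or at 21% oxygen (normoxia, 3 arrays), with no other difference between the groups in the labels. The labels do not say that the 3 samples of a group were separate cultures, so the spread between them may be technical. Total RNA was measured on 1-colour Affymetrix mouse arrays.

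Adenylate kinases interconvert adenine nucleotides, making ATP and AMP from a pair of ADP molecules, and so turn small falls in ATP into larger rises in AMP. Creatine kinases move the same high-energy phosphate between ATP and creatine, with mitochondrial forms that load creatine and cytosolic forms that return the phosphate to ATP where it is used. In heart muscle both systems, together with glycolysis, carry phosphoryl groups from mitochondria to myofibrils and ion pumps. Ak1 works in the cytosol, Ak3 and Ak4 lie in the mitochondrial matrix, and Ak4 has been described in other cells as a target of the oxygen-regulated transcription factor HIF.

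The median signal of an array was 15.0 at the lowest and 19.0 at the highest, and probe sets were kept for testing where their mean log2 signal equalled a geometric mean above 14.1. Of the 18 kinase probe sets, 14 passed this filter. The cells carried atrial markers, chiefly Myl7 and Myl4, with mean signals in hypoxia of 8687 and 4763 and in normoxia of 8653 and 5175. The summed signal of the 8 genes on the atrial list was 24936 to 27260 in hypoxia and 25823 to 27918 in normoxia, although Kcna5 and Gja5 stayed under the filter. This sum is no measure of atrial identity, since it includes Tnnt2 and Actc1 (6155 and 5356 in hypoxia), which are not specific to atrial cells. The 3 ventricular genes summed to 325 to 407 in hypoxia and 357 to 451 in normoxia, with Myl2 and Myl3 above the filter and Irx4 under it. The 4 smooth muscle genes summed to 12106 to 15066 in hypoxia and 11312 to 13212 in normoxia, mostly from Acta2 and Tagln, while Myh11 was under the filter. The sums of 4 leukocyte genes were low, 59.9 to 83.3 in hypoxia against 40.9 to 57.5 in normoxia. Most of the difference came from Cd68 (means of 44.0 and 20.2), whereas Adgre1 had 20.9 and 23.8 and Ptprc and Itgam were under the filter, and the part of these genes in the values below was not tested. The 5 endothelial genes summed to 71.8 to 125 in hypoxia and 81.0 to 97.3 in normoxia, with Kdr alone above the filter. Summed fibroblast genes reached at most 160 and summed neuronal genes at most 37.8 on any array.

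Ak4 was low on every normoxia array and high on every hypoxia array. Its brightest probe set, 1450387_s_at, gave signals of 640.8, 674.6 and 584.6 on hypoxia arrays 1 to 3 and of 23.2, 63.2 and 28.9 on normoxia arrays 1 to 3. The groups were far apart, and among the normoxia arrays the second stood above the other pair. The means were 633 ± 45.5 and 38.4 ± 21.6 (mean ± SD, n = 3 arrays per group here and below), a difference of 4.18 on the log2 scale (moderated SE 0.32, 95% interval 3.46 to 4.90). On the linear scale this was an 18.1-fold difference with an interval of 11.0 to 29.8. In bulk RNA, a change in the share of cells that express a gene and a change per cell cannot be told apart. The probe set name ends in s_at, which marks probes that can match more than 1 transcript, and the mouse annotation lists a pseudogene named Ak3l2-ps.

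A further Ak4 probe set without that suffix gave almost the same picture. Probe set 1421830_at had signals of 571.9, 515.7 and 480.4 in hypoxia and of 19.4, 57.2 and 23.3 in normoxia, 17.6-fold apart (log2 fold change 4.14, SE 0.35, interval 3.36 to 4.92). Again normoxia array 2 was the highest of its group and no normoxia array came near a hypoxia array. The dimmer probe set 1421829_at had 102.4, 108.0 and 80.1 in hypoxia and 2.5, 13.0 and 8.8 in normoxia. Its normoxia signals were all under the level of the filter, so its log2 fold change of 3.87 (SE 0.55, interval 2.64 to 5.09) rests on dim values on that side. It passed the filter only through its hypoxia signals. Over the 6 arrays the log2 signals of these 3 probe sets had Pearson correlations of 0.97 to 1.00, as a description of arrays that fall into 2 groups.

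The remaining Ak4 probe sets carried little signal. Probe set 1421831_at had 3.3, 4.1 and 2.6 in hypoxia and 1.6, 3.1 and 4.4 in normoxia, with an interval of the log2 fold change from -1.76 to 2.22. Probe set 1438395_at, designed on a separate expressed sequence tag, had 0.3, 1.9 and 0.9 in hypoxia and 4.8, 7.8 and 0.6 in normoxia, with an interval from -4.41 to 0.77. Both lay under the filter, their groups overlapped, and neither could show or exclude a difference of moderate size. Their intervals did not reach the log2 fold changes of 3.87 to 4.18 on the other Ak4 probe sets, so neither showed that rise. The response of Ak4 was thus read by 3 of its 5 probe sets. All 3 passed the test across the whole table (adjusted p under 0.05 by limma), which is the selection itself and no further evidence, and the call of 1421829_at was lost without hypoxia replicate 1 or without hypoxia replicate 2.

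**Figure D1:**
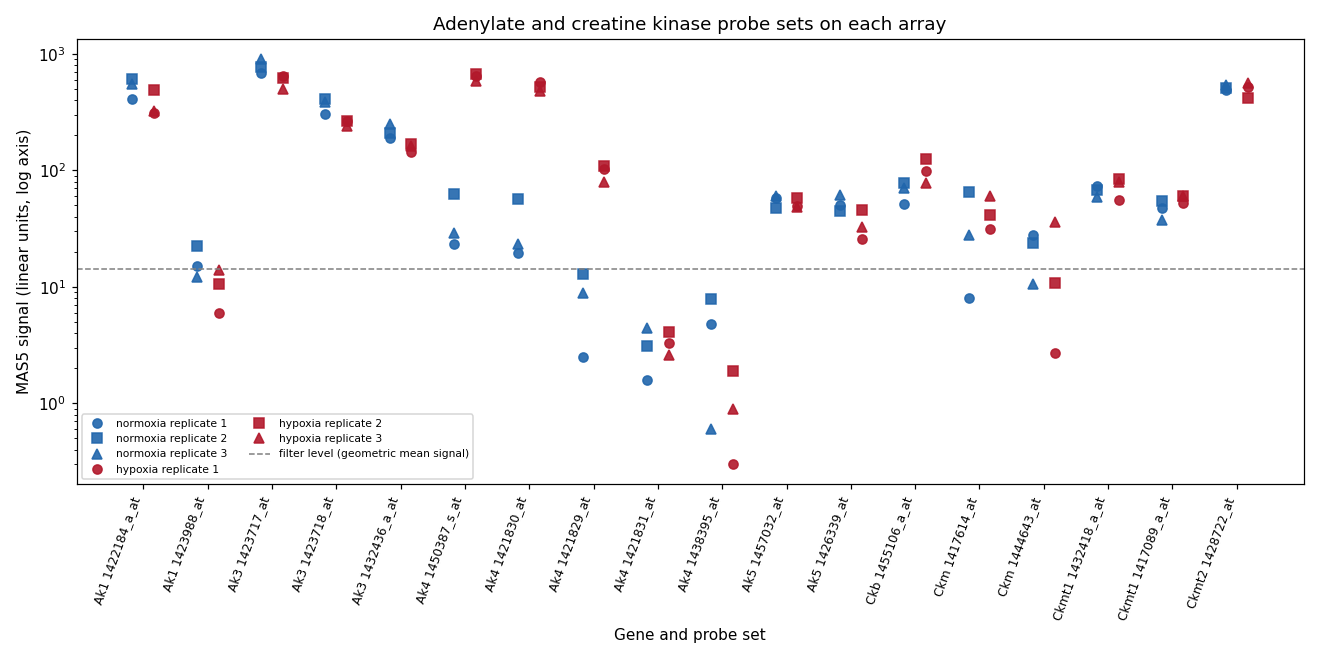
MAS5 signal (linear units on a log axis) of each of the 18 kinase probe sets, with 1 point per array, blue for normoxia and red for hypoxia, marker shape for the replicate number, and a dashed line at the filter level of 14.1. The 3 upper Ak4 probe sets separate the groups widely, from 23.2 to 63.2 in normoxia against 584.6 to 674.6 in hypoxia for 1450387_s_at.

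DNA before annotated starts of Ak4 and of Ak3 is shown to set the isoform that rose beside the other matrix form, with the HIF core motifs in capitals. The motifs searched were ACGTG and GCGTG on both strands, so that CACGT and CACGC mark the opposite strand. Windows ran from 250 bases before to 50 bases after each start in the table of RefSeq promoters used (GRCm38.p6). The lines give the 250 bases before the most upstream of the 4 Ak4 starts in that table (chr4:101419039-101419288, plus strand), the part of the Ak3 window that lies before the annotated gene (chr19:29048081-29048211, minus strand), and 30 bases from upstream of the most downstream Ak4 start (chr4:101419477-101419506, plus strand), each 5′ to 3′ on the strand of the gene. The annotated span of Ak4 begins further upstream, at base 101416478 of chromosome 4, so both Ak4 stretches lie inside the gene as annotated and no window covers that first base. The Ak3 stretch stops short of the Ak3 start in that table, base 29047961 of chromosome 19, while the Ak4 upstream stretch runs up to its start. The printed stretches are therefore not like regions.
Ak4 upstream: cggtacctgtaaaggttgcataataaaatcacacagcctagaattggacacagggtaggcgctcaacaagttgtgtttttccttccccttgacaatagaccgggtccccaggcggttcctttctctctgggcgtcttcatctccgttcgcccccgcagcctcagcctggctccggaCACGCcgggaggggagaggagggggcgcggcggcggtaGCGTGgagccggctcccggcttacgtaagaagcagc
Ak3 upstream: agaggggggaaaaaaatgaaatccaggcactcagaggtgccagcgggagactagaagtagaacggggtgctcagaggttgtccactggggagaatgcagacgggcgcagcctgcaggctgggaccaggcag
Ak4 downstream: tcccactctgccCACGTGcggggaccggca

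The upstream Ak4 window held GCGTG at bases -36 and, on the opposite strand, -74 from its start, and the downstream window held the palindrome CACGTG, which reads as ACGTG on both strands, from base -214. Each of the 4 Ak4 windows held at least 1 motif, but 3 of them overlap. The whole Ak3 window held neither motif. Across the 7 kinase genes with a window in the table, 9 of 14 windows held ACGTG or GCGTG, including 3 of 4 for Ak1 and those of Ckm and Ckmt2, and the windows of Ckb and Ckmt1 held none. Of all 32851 windows in the table, 43.8% held at least 1 of these motifs and 7.15% held CACGTG. By gene, Ak1, Ak4, Ckm and Ckmt2 held a motif and Ak3, Ckb and Ckmt1 did not, where 46.7% of 27025 genes held one. A match of these letters is a description of the window and not a bound site.

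Ak3, which uses GTP to phosphorylate AMP in the matrix, had slightly lower signals in hypoxia, but none of its 3 probe sets passed the test. Probe set 1423717_at had signals of 648.0, 623.0 and 500.2 in hypoxia and of 687.3, 769.4 and 900.8 in normoxia. Probe set 1423718_at had 267.5, 264.1 and 237.8 in hypoxia and 305.1, 413.1 and 382.2 in normoxia. Probe set 1432436_a_at had 144.4, 169.6 and 163.0 in hypoxia and 188.6, 210.5 and 250.7 in normoxia. On each of the 3 probe sets every hypoxia array lay under every normoxia array, with gaps that were narrow beside the spread within normoxia. Such a separation toward lower signals held for 9.06% of all tested probe sets.

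The log2 fold changes of Ak3 were -0.41 (SE 0.15, interval -0.75 to -0.07), -0.51 (SE 0.16, interval -0.86 to -0.15) and -0.44 (SE 0.17, interval -0.81 to -0.07) in the same order. These are signals 1.33-fold, 1.42-fold and 1.36-fold lower in hypoxia. Probe sets of 1 gene measure the same RNA samples, and their correlations of 0.81 to 0.89 over the 6 arrays show that they are not independent readings. Centring each array on its median moved the median of all tested probe sets from -0.04 to 0.07, and the Ak3 values then lay between -0.40 and -0.30.

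Ak1, the main cytosolic adenylate kinase of muscle, was bright on 1 of its 2 probe sets. Probe set 1422184_a_at had 311.3, 490.6 and 324.7 in hypoxia and 410.3, 603.6 and 555.0 in normoxia. The second array was the highest of both groups, and the hypoxia value of that array exceeded the lowest normoxia value, so the groups overlapped. The means of 376 ± 99.9 and 523 ± 101 differed by -0.49 on the log2 scale (SE 0.21, interval -0.96 to -0.02), which did not pass. Its other probe set, 1423988_at, lay under the filter with 6.0 to 14.0 in hypoxia and 12.2 to 22.3 in normoxia, and its interval ran from -2.02 to 0.56.

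Ak5, a cytosolic form known mainly from brain, had modest signals on both of its probe sets. Probe set 1457032_at had 49.7, 58.2 and 48.5 in hypoxia and 57.7, 47.6 and 60.2 in normoxia, with a log2 fold change of -0.08 (interval -0.55 to 0.39) whose sign turned under quantile normalization and median centring (0.01 and 0.03). Probe set 1426339_at had 25.7, 45.9 and 32.9 in hypoxia and 50.5, 44.4 and 60.8 in normoxia, with a log2 fold change of -0.60 (interval -1.22 to 0.02). The groups overlapped on both, and neither passed. Of 4 neuronal markers Syt1 was slightly above the filter, with mean signals of 20.5 in hypoxia and 17.4 in normoxia, and Snap25, Nefl and Tubb3 were under it.

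Among the creatine kinases, the groups were separate for Ckb alone, the cytosolic brain-type form that the fetal heart also carries. Its single probe set, 1455106_a_at, had 99.4, 124.1 and 78.3 in hypoxia and 51.2, 77.2 and 71.1 in normoxia. The lowest hypoxia array stood only slightly above the highest normoxia array, and a separation toward higher signals held for 7.48% of all tested probe sets. The means of 101 ± 22.9 and 66.5 ± 13.6 gave a log2 fold change of 0.59 (SE 0.24, interval 0.06 to 1.13), which did not pass. The mouse annotation lists 2 pseudogenes of Ckb, and how far they add to the signal was not tested.

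Ckm, the cytosolic form of striated muscle, was too variable to read. Probe set 1417614_at had 31.4, 41.5 and 60.0 in hypoxia and 8.0, 65.1 and 27.6 in normoxia, so that normoxia held both the highest and the lowest array. Its log2 fold change of 0.81 (SE 0.64, interval -0.61 to 2.24) became 0.01 without normoxia replicate 1 and 1.52 without normoxia replicate 2. The other probe set, 1444643_at, lay under the filter with 2.7, 10.8 and 36.0 in hypoxia and 27.7, 23.8 and 10.6 in normoxia and had the opposite sign (interval -2.77 to 0.94), which turned to 0.04 without hypoxia replicate 1. The 7 skeletal muscle genes, Ckm among them, summed to 508 to 654 in hypoxia and 491 to 588 in normoxia, mostly from Acta1, and Myh1, Myh2, Myh4 and Mylpf were under the filter.

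The mitochondrial creatine kinases differed little between the groups. Ckmt2, the sarcomeric form, had signals of 515.8, 421.7 and 558.1 in hypoxia and of 493.3, 508.7 and 539.1 in normoxia. Its log2 fold change was -0.05 (SE 0.14), with an interval of -0.37 to 0.27 that leaves room for a 1.20-fold rise or a fall by 0.37 on the log2 scale, and it was 0.06 after median centring. Ckmt1, the ubiquitous form, had 56.1, 85.0 and 79.4 against 73.0, 68.0 and 59.5 on probe set 1432418_a_at (log2 fold change 0.12, interval -0.37 to 0.61). On probe set 1417089_a_at it had 52.2, 59.9 and 60.4 against 47.7, 54.9 and 37.8 (log2 fold change 0.31, interval -0.19 to 0.81). The groups overlapped on all 3 of these probe sets, and none passed.

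**Figure D2:**
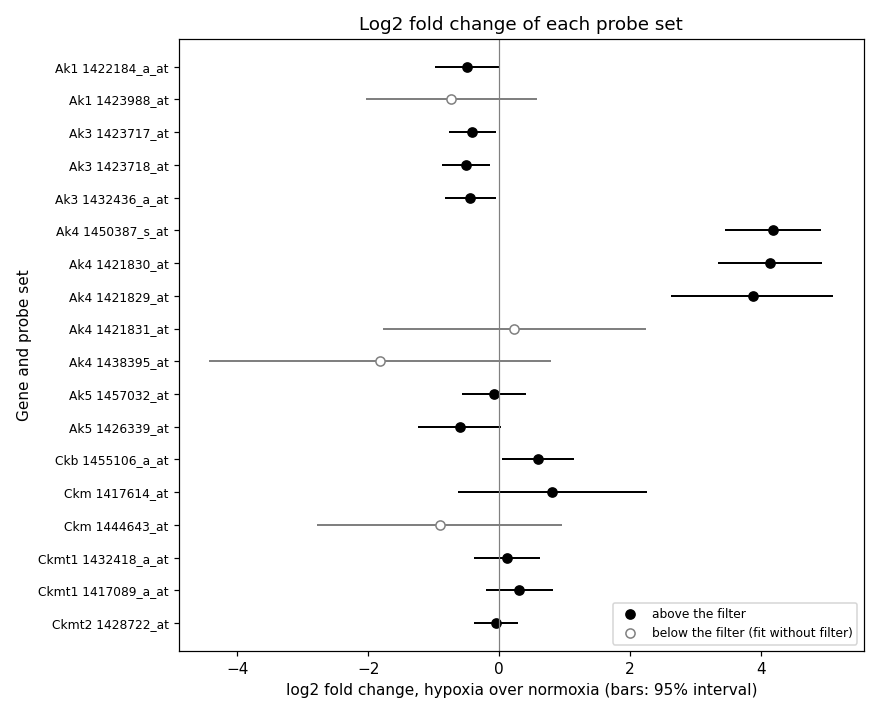
Log2 fold change of hypoxia over normoxia for each kinase probe set, with bars for the 95% interval from limma; filled points passed the filter and open points did not and come from the fit without it. Only the 3 brighter Ak4 probe sets lie beyond 1 log2 with intervals clear of 0, at 3.87 to 4.18.

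Across the 14 kinase probe sets that passed the filter, 7 had a log2 fold change above 0 and 7 below, with a median of 0.03 against -0.04 for all 22518 probe sets tested. The test called 3 of them higher in hypoxia, all of Ak4, and 0 lower, where 0.533% of all tested probe sets were called higher and 0.0755% lower. Of the 3, 1421829_at passed the filter only through its hypoxia signals. In 7 of the 14 the groups did not overlap, 4 higher and 3 lower in hypoxia, where this held for 7.48% and 9.06% of all tested probe sets. Those 7 belong to 3 genes, Ak4, Ak3 and Ckb, and the genes were chosen with this contrast known, so nothing is read from these shares.

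**Figure D3:**
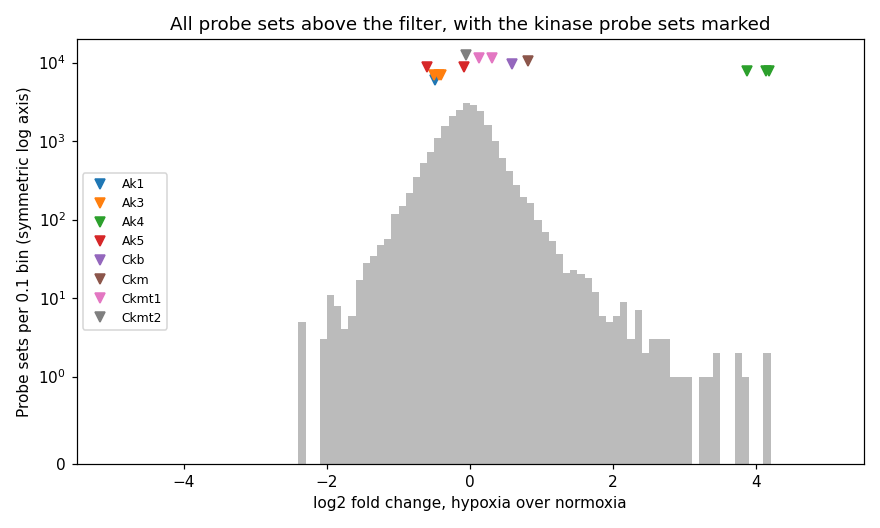
Distribution of the log2 fold change (hypoxia over normoxia) over all 22518 tested probe sets, in bins of 0.1 with the number of probe sets on a symmetric log axis; coloured triangles mark the 14 kinase probe sets at heights that only separate the genes. The Ak4 triangles, at 3.87 to 4.18, lie at the right end, and the other kinases lie between -0.60 and 0.81.

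The genes around the adenylate and creatine kinase reactions were described from 5 lists of 53 genes, put together by function while earlier results of these data were known. Of these, 42 were measured above the filter, 6 were below it and 5 had no probe set of their own in the annotation used. By limma 0 of the 42 were called in either direction at an adjusted p under 0.05, where 0.75% of 11332 genes were called. At an unadjusted p under 0.05 there were 9, where 12.4% of all genes reached it. The median log2 fold change of the 42 was -0.04, the same as over all genes tested.

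Of 9 other nucleotide kinases above the filter, 6 had log2 fold changes above 0 and 3 below, with a median of 0.03. Nme2 and Nme1, nucleoside diphosphate kinases that pass phosphate from ATP to other nucleotides, were the brightest. Nme2 had signals of 5631 ± 436 in hypoxia and 5626 ± 471 in normoxia (log2 fold change 0.00, interval -0.21 to 0.22). Nme1 had 1628 ± 195 and 1417 ± 584 (log2 fold change 0.27, limma adjusted p = 0.725). Nme4, a mitochondrial nucleoside diphosphate kinase named after its values were seen, had the largest value of the list, 69.7 ± 15.9 against 35.7 ± 8.52 (log2 fold change 0.97, SE 0.27), but did not pass (limma adjusted p = 0.211). Of the other adenylate kinases, named for their family, Ak7 was near the filter at 16.6 ± 2.15 and 16.8 ± 6.15 and Ak8 was below it.

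Creatine supply could be read for 2 of 3 genes. Slc6a8, the creatine transporter, had signals of 293 ± 45.3 in hypoxia and 274 ± 23.2 in normoxia (log2 fold change 0.09, limma adjusted p = 0.877). Gamt, which completes creatine synthesis by methylation, had 44.6 ± 3.44 and 76.5 ± 24.7 (log2 fold change -0.72, SE 0.27, limma adjusted p = 0.366). Gatm, which catalyses the step before it, was under the filter.

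The AMP-activated protein kinase senses the AMP that adenylate kinases produce. Of 10 genes for its subunits and activators, 9 had log2 fold changes below 0 and 1 above, with a median of -0.22 against -0.04 over all genes. By limma 0 were called, with 3 at an unadjusted p under 0.05, which 12.4% of all genes reached. The list was put together with earlier results known, so nothing is read from these counts. Prkag2, a nucleotide-binding gamma subunit, had 744 ± 16.0 in hypoxia and 944 ± 20.2 in normoxia (log2 fold change -0.34, SE 0.11, limma adjusted p = 0.272). Prkaa2, a catalytic subunit, had 490 ± 83.0 and 584 ± 62.3 (log2 fold change -0.26, limma adjusted p = 0.595). The single value above 0 was that of the beta subunit Prkab2, named after its values were seen, at 0.51 (limma adjusted p = 0.387).

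Genes that remove or rebuild AMP and adenosine had a median log2 fold change of -0.04 over 12 genes. Adk, which converts adenosine to AMP, had 3276 ± 151 in hypoxia and 3590 ± 229 in normoxia (log2 fold change -0.13, limma adjusted p = 0.641). Aprt, which salvages adenine, had 1968 ± 230 and 1737 ± 96.1 (log2 fold change 0.17, limma adjusted p = 0.627). Hprt, the salvage enzyme for hypoxanthine and guanine and a common reference gene, had 2100 ± 144 and 1387 ± 140 (log2 fold change 0.60, SE 0.11) and narrowly missed the threshold (limma adjusted p = 0.0589, range over the alternatives 0.0338 to 0.294). It was named after its values were seen.

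Carriers that exchange ATP, ADP and phosphate across the mitochondrial membranes had a median of -0.04 over 9 genes, with 0 called by limma and 0 at an unadjusted p under 0.05. Slc25a23, named after its values were seen, had the lowest value of all 42 partner genes, 63.2 ± 39.9 in hypoxia against 154 ± 117 in normoxia. Its log2 fold change of -1.13 (SE 0.58, interval -2.43 to 0.17) did not pass (limma adjusted p = 0.528), and the groups overlapped. The adenine nucleotide translocases Slc25a5 and Slc25a4 were very bright. Slc25a5 had 6355 ± 526 in hypoxia and 6591 ± 187 in normoxia (log2 fold change -0.06, interval -0.25 to 0.14). Slc25a4 had 6162 ± 610 and 6341 ± 514 (log2 fold change -0.04, interval -0.27 to 0.18).

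**Figure D4:**
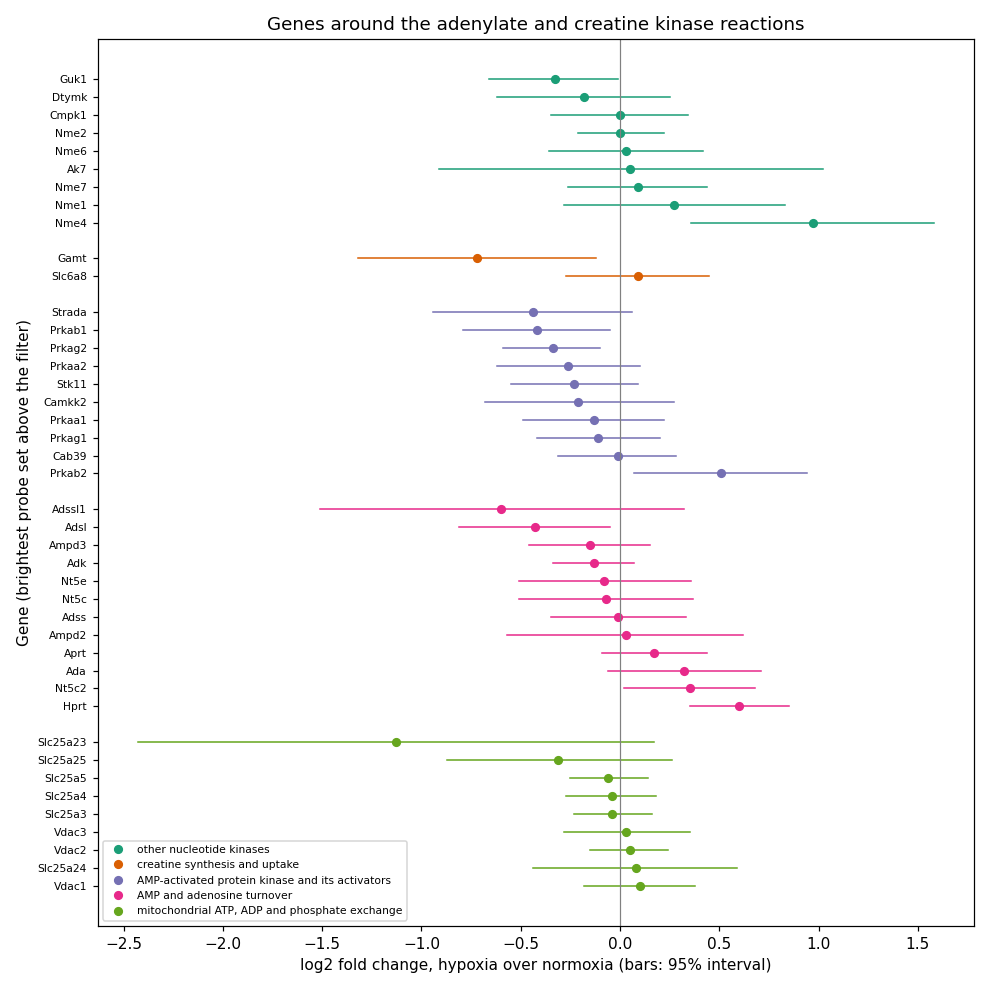
Log2 fold change (hypoxia over normoxia) of the 42 measured genes around the adenylate and creatine kinase reactions, with 95% intervals from limma and 1 colour per list. Values lie between -1.13 and 0.97, and 0 of the 42 genes passed after adjustment over the whole table.

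The genes most like Ak4 over the 6 arrays were found by the Pearson correlation of log2 signals with probe set 1450387_s_at, as a description over 6 arrays in 2 groups. They were Bnip3, a mitochondrial receptor of mitophagy (r = 0.996), Adm, which encodes the vasodilator adrenomedullin (0.996), Kbtbd11 (0.996), Fam162a, a mitochondrial protein (0.994), and Abhd18 (0.993). The likeness lies in the shape and not in the size, since r takes no account of scale. Bnip3 had signals of 3674 ± 540 in hypoxia and 535 ± 246 in normoxia, a log2 fold change of 2.87. Adm had 3610 ± 114 and 2239 ± 163, a log2 fold change of 0.69. Kbtbd11, Fam162a and Abhd18 had log2 fold changes of 2.78, 2.13 and 1.59.

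Normoxia array 2 was the highest normoxia array on the 3 Ak4 probe sets, and so it was in all 5 of these genes, which were picked for following Ak4 from array to array. Among the 75 genes called higher in hypoxia (0.662% of those tested) this held for 42 (56.0%), and among all 11332 genes tested for 31.7%. Without normoxia replicate 2 the log2 fold change of Ak4 was 4.61 on 1450387_s_at, and without normoxia replicate 1, the lowest array, it was 3.89. The part of this array in the spread of Ak4 was not tested further.

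**Figure D5:**
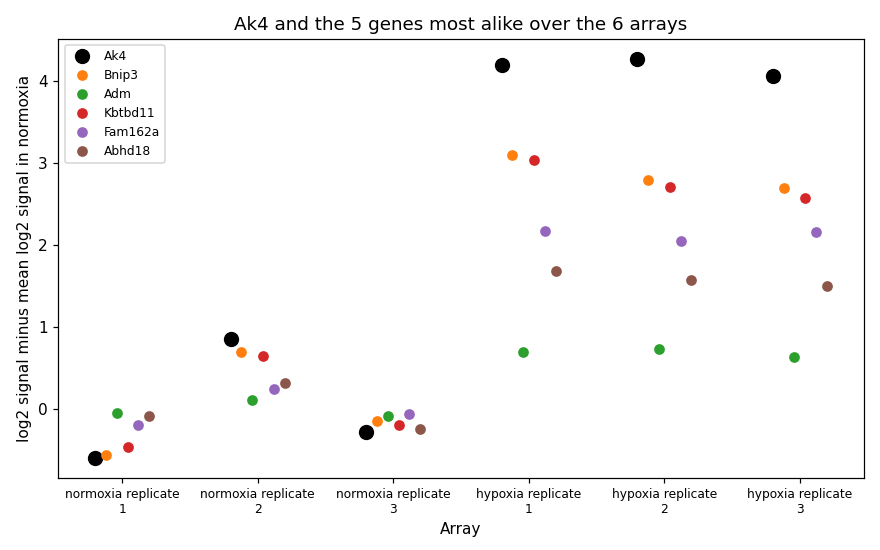
Log2 signal on each array minus the mean log2 signal of the 3 normoxia arrays, for Ak4 (large black points) and the 5 genes most like it, with small sideways shifts to separate the points. The 5 genes were picked for following Ak4 over these arrays and Ak4 for its rise, so the shared order of the normoxia arrays and the top place of Ak4 in hypoxia describe the selection.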

How the data were processed

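The values are the authors' deposited probe set intensity on a linear scale, made with MAS5 per the submitters' processing notes, whose settings the sources used here do not give. Trimming 2% of probe sets at both ends gave a mean of 99.5 on every array, so no scaling was added. Before taking log2, 10 zeros were raised to 0.1, the smallest positive signal. Detection calls were not used, and precision is limited by the number of arrays. The 22518 probe sets with a mean log2 signal above the median (a geometric mean of 14.1) were kept. The contrast was fitted in limma 3.58.1 (R 4.3.3; trend on mean signal, two-sided), with Benjamini-Hochberg adjustment over all kept and calls at an adjusted p under 0.05. Kinase probe sets under the filter were fitted without it. A gene was represented by its brightest kept probe set with 1 symbol. The fit was also run on simulated, independent normal values with known shifts, which cannot speak for array effects or dim signals here.

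Members and lists were chosen with earlier results of these data known. Named were all kinase probe sets, list genes that passed, the brightest 2 per list that did not, and the 5 genes most like Ak4. Beside this rule Nme4, Prkab2, Hprt, Slc25a23, Ak7, Ak8, Gatm and marker genes were named. Symbols come from a 2016 platform annotation, and promoters, gene names and coordinates from RefSeq (GRCm38.p6). The array values carry no genome build.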

Additional observations from a re-analysis of the deposited data

How the results depend on the processing

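The alternatives were quantile normalization, median centring, an offset of 2.9, no filter, a filter at the 75th percentile, eBayes without trend, the replicate number as a block, and leaving out each of the 6 arrays. All 219 kinase log2 fold changes recomputed this way moved by less than the spread between replicates, and 6 changed sign, none of them a called value. For most settings this could not come out otherwise. With 3 arrays per group, leaving out 1 array cannot move a value beyond that spread. The filter, eBayes and block settings leave the log2 fold change as it was. Only quantile normalization, median centring and the offset could have moved a value further, so the count of 219 is no evidence of stability. Ak4 on 1450387_s_at lay between 3.89 and 4.61 and on 1421830_at between 3.84 and 4.62, and both passed under each alternative. These calls repeat the selection of Ak4 on the same 6 arrays and are no further evidence. Ak4 on 1421829_at (3.17 to 4.36) lost its call without hypoxia replicate 1, without hypoxia replicate 2 and with eBayes without trend. No Ak1, Ak3, Ak5, Ckb, Ckm, Ckmt1 or Ckmt2 probe set passed under any alternative. The background was less stable. The 120 probe sets called higher became 16 with eBayes without trend and 37 to 163 with 1 array left out. The 17 called lower became 8 with median centring, 2 with eBayes without trend, and 1 to 37 with 1 array left out. With the replicate block the calls were 100 higher and 5 lower. Deviations from the group means had correlations of -0.076, 0.207 and -0.136 between same-numbered arrays. Between arrays of unlike number they were -0.3 to 0.319. The labels do not say whether same-numbered samples were paired, and correlations over so few arrays cannot decide it. Among the partner genes 1, Hprt, was called higher under quantile normalization, with the filter at the 75th percentile, with a gene's probe sets averaged, and without normoxia replicate 1 (0 to 1 with 1 array left out). The SE of the log2 fold change, which limits what could be read, was 0.55 to 1.18 for Ckm, the 3 dimmer Ak4 probe sets and the dimmer Ak1 probe set, and 0.14 to 0.35 for the other kinase probe sets; why Ckm varied this much was not tested.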
